A study of Mus musculus with 10 samples.

Results

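Regions of open chromatin that pluripotent cells use, and that were already open 3 days after the reprogramming factors were switched on, were followed through the reprogramming of mouse embryonic fibroblasts. A region was included if a peak was listed in both ATAC-seq libraries of DAY3, DAY6, DAY9 and ESC and in neither library of MEF. Of 208851 regions in the union of all 10 peak lists, 2634 (1.26%) met this rule. These regions were chosen by the presence or absence of a deposited peak in all 10 lists, so the absence from MEF and the presence at every later stage are how the regions were chosen and not a result.

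ATAC-seq uses a transposase that inserts sequencing adapters into accessible DNA, so peaks mark open chromatin. There were 2 libraries at each of 5 stages, all from a C57BL/6 x 129 background. MEF cells carried the OKSM cassette (which encodes Oct4, Klf4, Sox2 and Myc) at Col1a1, and the doxycycline-dependent activator M2rtTA at ROSA26. They were unsorted and were kept in MEF medium without doxycycline. DAY3, DAY6 and DAY9 cells were the same fibroblasts after 3, 6 and 9 days in ESC medium with 1 ug/ml doxycycline and 50 ug/ml ascorbic acid. DAY3 cells were unsorted, whereas DAY6 and DAY9 cells were sorted for the surface antigen SSEA1. ESC cells were of the line V6.5, unsorted, without the cassette, and were grown with LIF on irradiated feeder cells. In bulk libraries fewer open cells and less signal per cell cannot be told apart. Sorting and stage also cannot be told apart, and neither can the absence of the cassette and ESC.

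The factors Oct4, Sox2 and Klf4 can bind DNA that is wrapped in nucleosomes, and sites at which they act in fibroblasts may be opened before the genes nearby are expressed. Most pluripotency genes are controlled by distal enhancers as well as by their promoters, and some of these enhancers lie in groups. Reprogramming of fibroblasts also passes through a gain of epithelial features, with cell junction genes switched on and mesenchymal genes switched off.

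The largest group of these regions lay next to the miR-290 cluster, a set of microRNAs made in the early embryo and in mouse embryonic stem cells. The sequences of 5 of its mature microRNAs, from RefSeq (GRCm38.p6), are shown because these regions lie just upstream of the DNA that encodes them. Capitals mark the seed, bases 2 to 8, through which a microRNA pairs with its targets. The first 2 share the seed AAGUGCU and the other 3 share CUCAAAC.
mmu-miR-294-3p: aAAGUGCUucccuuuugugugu
mmu-miR-295-3p: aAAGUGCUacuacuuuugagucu
mmu-miR-290a-5p: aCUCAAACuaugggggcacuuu
mmu-miR-292a-5p: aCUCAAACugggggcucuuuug
mmu-miR-293-5p: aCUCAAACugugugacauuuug

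Promoters covered by these regions were few, and 5 are shown as the 250 bases before the gene start, 5′ to 3′ on the strand of the gene (RefSeq, GRCm38.p6). L1td1 (plus strand, chr4:98726504-98726753) encodes an RNA-binding protein of pluripotent cells, Pim2 (plus strand, chrX:7878056-7878305) a protein kinase, Pipox (minus strand, chr11:77893873-77894122) a peroxisomal oxidase, and Cldn3 (plus strand, chr5:134985964-134986213) the tight junction protein claudin 3. Cpsf4l lies on the minus strand (chr11:113710018-113710267). They were chosen after the values were seen, as named regions whose promoter holds a Klf, octamer or Sox2 motif, plus Cldn3 as the epithelial gene. Capitals mark GGGCGTGG (Klf) in L1td1, ATGCAAAT or its reverse complement (the octamer bound by Oct4) in Pim2 and Pipox, and the reverse complement of ACAATGG (Sox2) in Cpsf4l. Cpsf4l also holds GGAATG (Tead) and Pim2 holds CCAAT (NF-Y), which are not marked, and Cldn3 has none of the motifs searched.
L1td1: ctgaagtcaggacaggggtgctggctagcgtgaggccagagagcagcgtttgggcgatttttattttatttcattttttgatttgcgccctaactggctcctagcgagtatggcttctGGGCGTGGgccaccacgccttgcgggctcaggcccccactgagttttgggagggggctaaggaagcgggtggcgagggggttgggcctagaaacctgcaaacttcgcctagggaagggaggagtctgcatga
Pim2: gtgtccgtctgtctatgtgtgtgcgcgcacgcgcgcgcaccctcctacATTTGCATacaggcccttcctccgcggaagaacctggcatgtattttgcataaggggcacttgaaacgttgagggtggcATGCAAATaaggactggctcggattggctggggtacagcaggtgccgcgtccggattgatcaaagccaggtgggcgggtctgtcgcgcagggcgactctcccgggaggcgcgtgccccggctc
Pipox: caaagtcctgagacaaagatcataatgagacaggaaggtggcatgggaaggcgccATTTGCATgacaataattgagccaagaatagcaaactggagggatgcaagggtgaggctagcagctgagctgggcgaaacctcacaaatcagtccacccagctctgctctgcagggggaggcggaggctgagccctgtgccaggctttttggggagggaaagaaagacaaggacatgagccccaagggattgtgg
Cpsf4l: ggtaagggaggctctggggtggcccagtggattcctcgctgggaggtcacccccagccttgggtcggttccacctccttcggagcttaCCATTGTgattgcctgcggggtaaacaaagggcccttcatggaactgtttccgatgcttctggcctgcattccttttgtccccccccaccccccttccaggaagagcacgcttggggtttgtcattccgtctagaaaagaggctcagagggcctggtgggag
Cldn3: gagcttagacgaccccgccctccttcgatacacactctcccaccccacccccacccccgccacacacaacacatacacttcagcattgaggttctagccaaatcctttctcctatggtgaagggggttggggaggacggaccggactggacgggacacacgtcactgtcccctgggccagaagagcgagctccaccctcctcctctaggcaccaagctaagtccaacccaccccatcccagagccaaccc

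Of the 136 promoter windows of 300 bases (250 before to 50 after a start) that these regions overlapped, 7 (5.15%) held the octamer ATGCAAAT on either strand, against 1.74% of all 32851 windows and 1.32% of the 11990 windows open in all 10 lists. The Klf motif CCACACCC was found in 10 (7.35%, against 3.56% of all windows and 3.69% of those open in all lists). The Klf motif GGGCGTGG was found in 11 (8.09%), above the 5.33% of all windows and below the 11% of those open in all lists. The Sox2 motif ACAATGG was found in 8 (5.88%, against 3.66% and 1.71%). In the same order, TGANTCA of AP-1 was in 8.09% against 7.81% and 3.95%, GGAATG of Tead in 14.7% against 14.7% and 11.1%, and CACGTG of Myc in 7.35% against 7.15% and 10.7%. CCAAT of NF-Y was in 30.9% against 37.4% and 39.2%. TCAAGGTCA of Esrrb and the joint motif of Oct4 and Sox2 were in none of the 136 windows, and the latter was in none of all windows either. Promoters open in all 10 lists were richer in CpG, with a median observed to expected ratio of 0.80 against 0.461 in the 136 windows and 0.384 in all windows. The 136 windows belong to 124 genes, the 11990 to 10344 and all 32851 to 27025. Whether windows of the same gene hold the same copy of a motif was not checked. A match is a description of the sequence, and these counts are small and have no test.

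The lists held 45497 peaks (DAY3 replicate 2) to 88980 peaks (ESC replicate 2), and read totals are not part of them. Recovered summit heights of the DAY3 pair varied 1.19 times as much as counting alone would give. The same ratio was 1.25 in DAY9, 2.94 in DAY6, 5.10 in MEF and 5.11 in ESC. Each of the DAY3 and DAY9 pairs is therefore counted as 1 sample, so that a second list of the pair is no further replicate. The labels do not say whether libraries came from separate cultures. Of 8 pluripotency markers, the number with a peak within 1 kb of the gene start in replicates 1 and 2 was 0 and 3 (MEF), 2 and 1 (DAY3), 5 and 6 (DAY6), 7 and 7 (DAY9) and 8 and 8 (ESC). Of 10 fibroblast markers, 10 and 10 had such a peak (MEF), 7 and 8 (DAY3), 7 and 6 (DAY6), 6 and 5 (DAY9) and 7 and 7 (ESC). Postn and Col3a1 had one in both MEF lists and in no other list. By contrast, Twist1, Col1a1, Col1a2, Snai2 and Fbn1 had one in all 10 lists. Of 6 epithelial markers, 1 and 0 had such a peak (MEF), 3 and 2 (DAY3), 5 and 5 (DAY6), 5 and 6 (DAY9) and 5 and 5 (ESC). The one in MEF replicate 1 was at Epcam. For 6 trophoblast and endoderm markers the counts were 4 and 3 (MEF), 2 and 2 (DAY3), 3 and 3 (DAY6), 4 and 4 (DAY9) and 5 and 5 (ESC). ESC cells were grown on feeder cells, and the part of the feeders in the ESC lists was not tested.

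MEF replicate 1 decided the boundary of the set more than any other library. Beside the 2634 regions there were 1279 with peaks in all 8 later lists and in MEF replicate 1 alone, and 242 with a peak in MEF replicate 2 alone. A peak was missing in only 1 of the 8 later lists, with no MEF peak, in 590 regions for DAY3 replicate 1, 529 for DAY3 replicate 2, 493 for ESC replicate 1 and 626 for ESC replicate 2. The 4 DAY6 and DAY9 lists were each the only one missing in 17 to 66 regions. Just inside the rule stood the 3 regions nearest to Mab21l2 (chr3:86635727-86636310), Dpp6 (chr5:27343268-27344113) and Fam136a (chr6:86294932-86296590), whose weakest peak had a −log10 p-value of 5.00 in DAY9 replicate 2. Just outside stood the regions nearest to Ralgps2 (chr1:156938626-156940401), Etv5 (chr16:22544964-22545616) and Rin3 (chr12:102282601-102283458), each kept out by 1 peak of MEF replicate 1 with a −log10 p-value of 5.00, 5.00 and 5.02.

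Of the 11340 regions gained between MEF and DAY3 (5.43% of all regions), 2634 (23.2%) were kept through DAY6 and DAY9 into ESC. Another 3520 (31.0%) were open in both libraries of DAY3, DAY6 and DAY9 and in neither ESC library, and 1119 (9.87%) had a peak in 1 of the ESC libraries. Only 1044 (9.21%) had no peak in any later list. Within the DAY3 lists, the regions kept into ESC had a median fold at the percentile 58.0 in both libraries, close to the 59.6 and 59.4 of regions open through DAY9 and not in ESC. Regions with no later peak had a lower median, at the percentile 32.8 and 32.9. The DAY3 fold therefore stood at a similar rank in regions that ESC shared and in those that it lacked, as a description of a pair of libraries that counts as 1 sample.

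Fold enrichment, the authors' ratio of a peak to its local background, depends on depth, so levels were compared as ranks over an equal set of regions. The 19514 regions with a peak in each of the 8 later lists were ranked by fold within each list, and the median percentile of the 2634 regions was read. It was 31.3 and 31.3 (DAY3), 48.7 and 49.3 (DAY6), 45.6 and 46.1 (DAY9) and 36.2 and 32.1 (ESC). The DAY6 and DAY9 libraries were thus the high ones and did not overlap with those of DAY3 and ESC. The 16880 other regions of this ranking, which had MEF peaks, had medians of 50.1 to 53.2. Among the 8474 ranked regions more than 1 kb from a gene start, the median was 48.9 and 48.1 (DAY3), 60.9 and 63.0 (DAY6), 61.5 and 62.2 (DAY9) and 50.5 and 45.4 (ESC), again highest at DAY6 and DAY9. The 6005 others among these had medians of 44.4 to 51.9. All the others had a MEF peak, which the rule forbids in the 2634 regions, so the contrast with them is not independent of the rule. The deposited fold itself had medians of 5.08 and 5.10 (DAY3), 9.07 and 9.32 (DAY6), 9.22 and 9.27 (DAY9) and 7.32 and 5.71 (ESC).

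**Figure D1:**
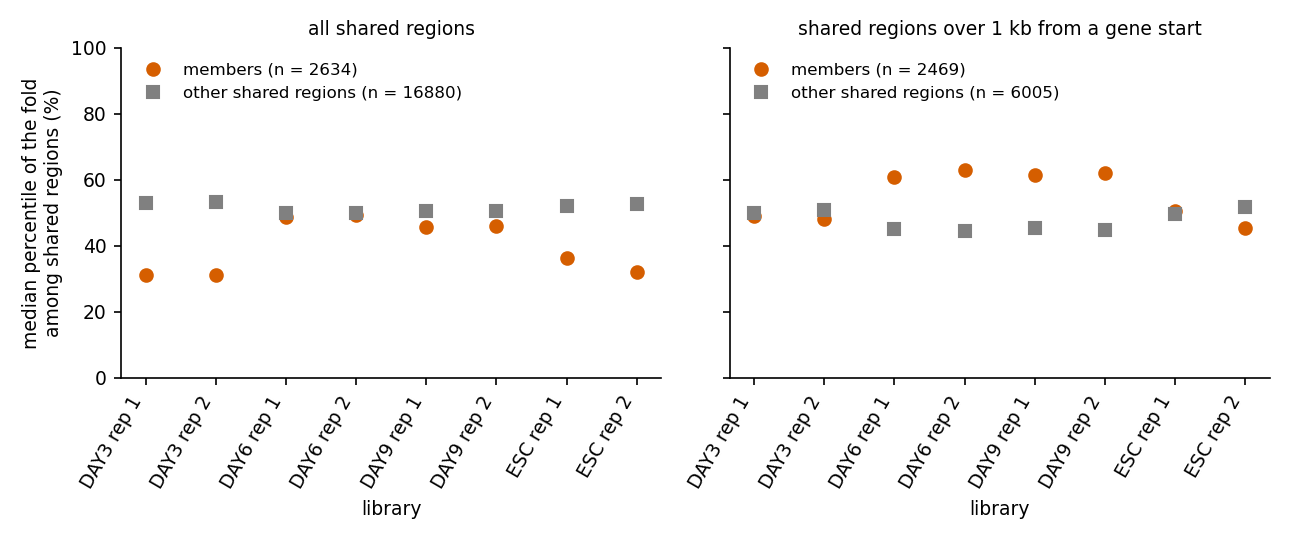
Median percentile of fold enrichment (vertical axis, percent) in each library (horizontal axis) for the regions open from DAY3 (circles) and for the other regions with a peak in all 8 lists (squares), over all such regions (left) and those more than 1 kb from a gene start (right). Circles stand highest in the DAY6 and DAY9 libraries, at 45.6 to 49.3 on the left, and lower in DAY3 and ESC, at 31.3 to 36.2.

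Single regions followed this order in part. Of the 2634 regions, 1227 (46.6%) ranked higher in both DAY6 than in both DAY3 libraries, beside 22.0% of all 19514 ranked regions, and 347 (13.2%) ranked lower, beside 28.0%. From DAY6 to DAY9, 573 (21.8%) ranked higher, beside 24.3%, and 763 (29.0%) lower, beside 21.2%. From DAY9 to ESC, 644 (24.4%) ranked higher, beside 31.2%, and 1123 (42.6%) lower, beside 29.1%. Between DAY3 and ESC, 914 (34.7%) ranked higher in ESC, beside 27.8%, and 794 (30.1%) lower, beside 30.2%. The highest mean rank was at DAY6 in 30.0% of the regions (17.0% of all ranked regions), at DAY9 in 25.5% (21.3%), at ESC in 27.5% (32.0%) and at DAY3 in 17.0% (29.7%). Ranked among regions more than 1 kb from a gene start, 40.7% of 2469 were higher in DAY6 than in DAY3 (all ranked: 24.7%) and 17.6% lower (28.9%). From DAY6 to DAY9, 26.6% were higher (25.5%) and 23.7% lower (22.7%). This ranking has fewer regions to rank against, so its shares are not those of the full ranking restricted to distal regions. From DAY9 to ESC, 24.1% were higher (33.6%) and 42.9% lower (29.8%), and between DAY3 and ESC 32.2% were higher (30.2%) and 32.1% lower (31.6%). DAY6 and DAY9 are the sorted stages, and the part of sorting in these ranks was not tested. DAY3 and DAY9 each count as 1 sample, so a lack of overlap with either rests on 1 sample on that side.

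Folds of single regions, here and below, are the deposited values and depend on depth. Over all 2634 regions the median fold was lower in DAY3 (5.08 and 5.10) than in DAY6 and DAY9 (9.07 to 9.32). An order of stages by fold is therefore not always the order by rank. Of the 2634 regions, 165 (6.26%) lay within 1 kb of a gene start. The one with the highest mean percentile of fold covered the start of Filip1, the gene of a filamin A interacting protein, at chr9:79830227-79831579. Its fold was 14.0 and 15.8 (DAY3), 13.4 and 16.5 (DAY6), 16.6 and 18.6 (DAY9) and 19.8 and 17.1 (ESC), and it was also among the 10 strongest of all 2634 regions by that measure. The region at Kdm3a (chr6:71608918-71610061), which encodes a histone H3K9 demethylase, had a fold of 8.73 and 8.50 (DAY3), 11.3 and 15.8 (DAY6), 13.5 and 9.94 (DAY9) and 11.03 and 8.35 (ESC). Pim2, which encodes a protein kinase, had a region over its start (chrX:7877820-7878590) with a fold of 6.28 and 7.48 (DAY3) and of 8.94 to 13.9 over DAY6, DAY9 and ESC. The DAY3 values are thus the lowest at Pim2, without overlap. At 0.248 kb from a start of Trim2 (chr3:84305023-84305933), the gene of a ubiquitin ligase, the fold was 5.76 and 8.57 (DAY3), 14.1 and 14.6 (DAY6), 18.6 and 16.8 (DAY9) and 9.88 and 11.2 (ESC), highest in DAY9. The region 0.04 kb from a start of F2 (chr2:91636497-91637199), the prothrombin gene, had 8.74 and 10.0 (DAY3), 18.1 and 17.1 (DAY6), 15.4 and 16.0 (DAY9) and 9.74 and 5.60 (ESC), with all DAY6 and DAY9 values above those of DAY3 and ESC.

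Several of these starts belong to genes used as pluripotency markers. Fbxo15, an F-box protein gene used as a reporter of reprogramming, had a region over a gene end (chr18:84933556-84935096) with a fold of 9.22 and 9.14 (DAY3), 11.7 and 10.8 (DAY6), 11.2 and 11.8 (DAY9) and 9.29 and 8.12 (ESC). By mean rank among the 19514 regions it was instead highest in DAY3, at 77.2 (DAY3), 67.5 (DAY6), 63.8 (DAY9) and 56.5 (ESC). Gdf3, which encodes a TGF-beta family ligand, had one at 0.833 kb from a gene end (chr6:122607723-122609254) with 11.97 and 13.2 (DAY3), 11.8 and 14.4 (DAY6), 10.5 and 11.6 (DAY9) and 7.61 and 5.16 (ESC). Both ESC values at Gdf3 lie below every earlier value. L1td1 had one region over its start (chr4:98726407-98727052), with 3.29 and 4.18 (DAY3), 4.37 and 5.17 (DAY6), 5.45 and 5.49 (DAY9) and 5.37 and 3.79 (ESC), and a stronger one 0.996 kb from a start (chr4:98727750-98728737), with 9.47 and 9.09 (DAY3), 11.1 and 10.3 (DAY6), 10.6 and 11.2 (DAY9) and 8.04 and 5.68 (ESC). At Pipox (chr11:77893565-77894582) the fold was 8.36 and 8.51 (DAY3), 9.73 and 11.4 (DAY6), 12.6 and 12.1 (DAY9) and 8.74 and 8.76 (ESC), and at Cpsf4l (chr11:113709583-113711033) it was 10.3 and 9.63 (DAY3), 10.4 and 10.8 (DAY6), 10.0 and 10.6 (DAY9) and 8.81 and 5.40 (ESC). The 2 ESC values at Cpsf4l are the lowest of the 8. Plcxd3 (chr15:4375178-4376682) and Ankrd6 (chr4:32923191-32924466), the other 2 of the 12 starts named, had folds of 5.35 to 15.1 and 6.69 to 11.1. By mean rank, Gdf3, Pipox, Cpsf4l, Ankrd6 and the stronger region of L1td1 were highest in DAY3, as was Fbxo15. Plcxd3 was highest in DAY6 by that measure, and the region over the start of L1td1 in DAY9.

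**Figure D2:**
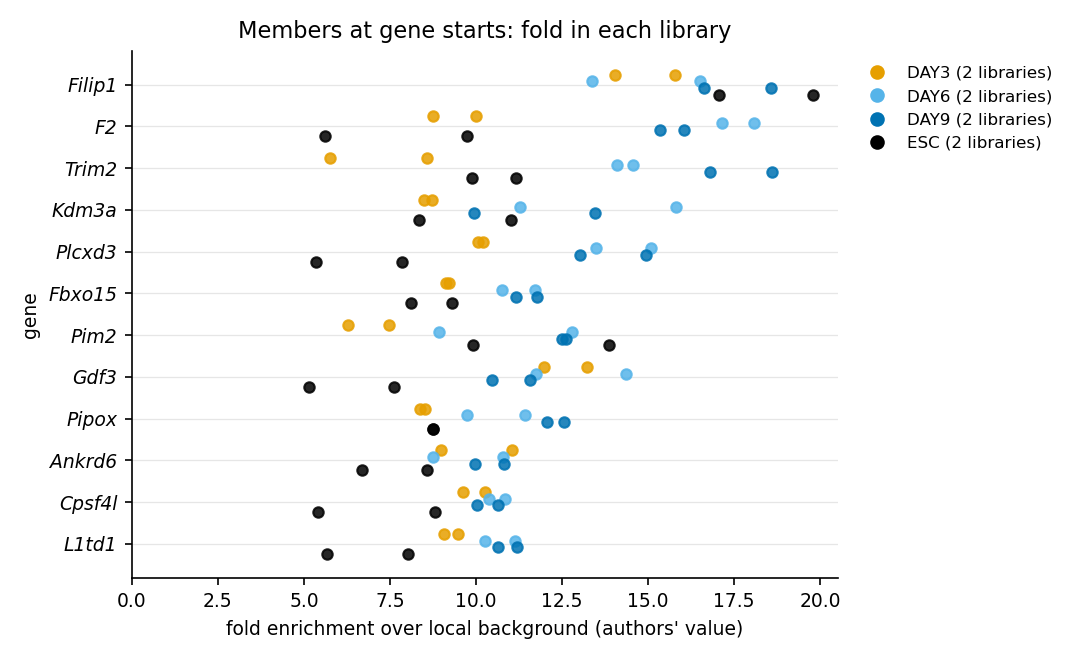
Fold enrichment over local background as deposited (horizontal axis) for the 12 regions within 1 kb of a gene start with the highest mean percentile (vertical axis, by nearest gene). Each point is 1 library, coloured by stage; Filip1 lies at 13.4 to 19.8 and the ESC points of Gdf3, Cpsf4l and L1td1 lie at the left of their rows.

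Genes of pluripotency, epithelial identity and signalling were then searched for a region within 50 kb of their start. Of all 21887 protein-coding genes, 12.9% had one. Of 169 listed genes, 51 (30.2%) had one, and regions opening at DAY6 and DAY9 lay near 32.5% and 30.8% of the same genes, against 17.1% and 14.4% of all genes. Regions open in ESC only, a larger set of 16521, lay near 59.2% of the listed genes, against 45.4% of all genes. Proximity to the listed genes is thus shared by sets that opened later. Regions open from DAY3, DAY6 and DAY9 lay near 5, 8 and 6 of 20 pluripotency transcription factors and 11, 11 and 7 of 27 epithelial genes. For 31 signalling genes the counts were 12, 7 and 12, and for 22 trophoblast, endoderm and germ layer factors 5, 11 and 6. They were 4, 1 and 6 of 14 AP-1 and Tead pathway genes, and 3, 3 and 3 of 10 SSEA1 and surface marker genes. The lists were chosen with earlier results of these data known, and they have no test. For a gene without a known strand either end counted as its start. The shares within 50 kb were not recounted with known starts only.

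Among 20 pluripotency transcription factors, 5 (25.0%) had a region within 50 kb: Tcf7l1, Klf2, Tfcp2l1, Nanog and Zfp281. Klf2 encodes a zinc finger factor of naive pluripotency. Its region lay 2.33 kb upstream of the start (chr8:72315953-72316731) and had a fold of 4.36 and 4.70 (DAY3), 6.90 and 9.13 (DAY6), 9.23 and 8.63 (DAY9) and 7.12 and 5.22 (ESC). Tfcp2l1, another factor of the naive state, had 2 regions within 50 kb, the nearer inside the gene (chr1:118642268-118643241), with 6.03 and 3.51 (DAY3), 10.1 and 13.9 (DAY6), 7.62 and 8.98 (DAY9) and 6.29 and 6.89 (ESC). Its DAY6 values are the highest. Nanog, a core pluripotency factor, had none at its own start and one 44 kb upstream (chr6:122662551-122663450), with Dppa3 nearest, where the fold was 6.88 and 6.72 (DAY3), 12.1 and 11.6 (DAY6), 15.7 and 14.6 (DAY9) and 8.26 and 4.69 (ESC). The DAY6 and DAY9 values there exceed those of DAY3 and ESC. Tcf7l1, a repressor of Wnt targets, had 5 regions within 50 kb, the nearest 0.713 kb downstream of the start, inside the gene (chr6:72787210-72788332) with 3.93 and 2.94 (DAY3), 4.92 and 4.22 (DAY6), 5.69 and 5.27 (DAY9) and 6.03 and 6.39 (ESC). Zfp281 had one 49.5 kb downstream (chr1:136674365-136675234), at 2.91 to 10.1 over the 8 libraries. No region lay inside Pou5f1, Klf4, Sox2 or Myc, the genes that the cassette carries. Farther out than the 50 kb searched, a region had Sox2 as its nearest gene (chr3:34757325-34758298). It lay 107330 bp from the start of Sox2 and outside any protein-coding gene. Its fold was higher in every DAY6 and DAY9 library than in those of DAY3 and ESC. Whether it acts on Sox2 was not tested.

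Of 20 other genes used as pluripotency markers, 9 (45.0%) had a region within 50 kb, and regions open from DAY6 also lay near 9 of the 20. Within 20 kb, 7 (35.0%) had one, beside 5.99% of all protein-coding genes. Fbxo15, L1td1 and Gdf3 are given with the gene starts. Tdh encodes threonine dehydrogenase, an enzyme on which mouse embryonic stem cells depend. The region inside Tdh (chr14:63499850-63501105), 7.5 kb from a gene end, had a fold of 10.97 and 9.57 (DAY3), 13.2 and 16.0 (DAY6), 15.6 and 14.3 (DAY9) and 10.9 and 8.70 (ESC). Dnmt3l encodes a cofactor of the de novo DNA methyltransferases. Its region (chr10:78043256-78043967) lay 0.969 kb downstream of the start and also overlapped Aire, with 3.81 and 3.51 (DAY3), 7.19 and 4.21 (DAY6), 8.17 and 6.66 (DAY9) and 5.62 and 4.44 (ESC). The remaining 4 genes with a region within 50 kb were Dppa3, Tet2, Jarid2 and Tdgf1, at 17.2 to 48.4 kb, and the region nearest to Dppa3 is that of Gdf3.

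Epithelial genes had a region within 50 kb in 11 of 27 cases (40.7%). Esrp1, which encodes an epithelial splicing regulator, had one over a gene end (chr4:11386402-11388575) with a fold of 5.38 and 5.65 (DAY3), 5.97 and 5.26 (DAY6), 8.97 and 8.54 (DAY9) and 7.42 and 5.57 (ESC). Cldn3 had one over its start (chr5:134985262-134986605) with 5.56 and 5.84 (DAY3), 12.1 and 12.2 (DAY6), 12.1 and 13.6 (DAY9) and 10.4 and 7.26 (ESC), lowest in DAY3 and without overlap with the later stages. Pkp3 and Dsp encode desmosome proteins. The region 10.1 kb upstream of Dsp (chr13:38140345-38141178) had 5.71 and 5.26 (DAY3), 11.4 and 9.54 (DAY6), 10.95 and 9.56 (DAY9) and 4.68 and 3.41 (ESC), with the DAY6 and DAY9 values above the others. The one 5.86 kb from a gene end of Pkp3 (chr7:141096369-141097222) lay inside Sigirr and had 7.59 and 8.37 (DAY3), 10.5 and 12.3 (DAY6), 9.86 and 10.6 (DAY9) and 5.28 and 3.58 (ESC). St14, the gene of the membrane protease matriptase, had one 11.3 kb from a gene end (chr9:31119836-31120535), at 2.42 to 6.61. Cldn4 was counted through the region of Cldn3.

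Of 25 fibroblast and mesenchymal genes, 2 (8.0%) had a region within 50 kb, the only list below the 12.9% of all genes. By contrast, regions opening at DAY6 lay near 5 of the 25 and those opening at DAY9 near 7, differences that were not tested. Fn1, the fibronectin gene, had 3 regions within 50 kb, the nearest inside the gene (chr1:71645302-71646505) with a fold of 6.06 and 5.34 (DAY3), 5.99 and 12.3 (DAY6), 12.46 and 12.4 (DAY9) and 8.32 and 6.92 (ESC). Col1a1 encodes a chain of collagen I, and its locus carries the cassette in all stages except ESC. Its region (chr11:94957648-94958892) lay outside the gene, 4.61 kb from a gene end, with 3.30 and 2.69 (DAY3), 6.04 and 5.43 (DAY6), 6.17 and 5.47 (DAY9) and 12.2 and 6.66 (ESC). The highest value was that of ESC replicate 1, which has no cassette.

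Signalling genes had a region within 50 kb in 12 of 31 cases (38.7%). Among ligands, Nodal had one 0.561 kb upstream of its start (chr10:61415478-61417411), with a fold of 4.53 and 4.87 (DAY3), 5.83 and 7.07 (DAY6), 7.07 and 6.58 (DAY9) and 6.42 and 5.52 (ESC). Fgf4, the main autocrine FGF of embryonic stem cells, had one 2.29 kb downstream of the start and inside the gene (chr7:144863673-144864943), with 3.27 and 5.38 (DAY3), 5.92 and 6.80 (DAY6), 5.76 and 7.32 (DAY9) and 3.44 and 3.08 (ESC). Inhibitors were represented by Lefty1, which encodes a Nodal antagonist, with a region over a gene end (chr1:180933455-180935141) at 3.73 to 5.26 (Lefty2 was counted through the same region), and by Smad7, which encodes an inhibitory Smad (chr18:75360612-75361381), at 4.68 to 11.4. Id3, a BMP target that encodes an inhibitor of bHLH factors, had one 2.72 kb downstream of its start (chr4:136146545-136147279), with 2.50 and 2.67 (DAY3), 3.31 and 3.85 (DAY6), 6.91 and 7.35 (DAY9) and 7.99 and 4.67 (ESC). The DAY3 and DAY6 values at Id3 are all below those of DAY9 and ESC.

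The 3 other lists had 3 to 5 such genes each. Of 22 transcription factors of trophoblast, endoderm and germ layers, 5 (22.7%) had one within 50 kb. Cdx2, the trophectoderm factor gene, had one inside the gene (chr5:147304345-147305285) with a fold of 3.17 and 3.03 (DAY3), 3.12 and 4.07 (DAY6), 4.89 and 5.33 (DAY9) and 4.97 and 4.58 (ESC). Tfap2c had one 28.5 kb from a gene end (chr2:172516291-172517226) with 5.71 and 5.78 (DAY3), 14.4 and 15.3 (DAY6), 17.2 and 16.3 (DAY9) and 12.4 and 9.25 (ESC), where both DAY3 values lie below all others. Msx2, Tead4 and Pax6 had theirs at 2.76, 19.5 and 45.1 kb. Of 14 AP-1 and Tead pathway genes, 4 (28.6%) had one within 50 kb: Jund, Yap1, Tead1 and Fosl2. Yap1, which encodes the coactivator of Tead factors, had one inside the gene (chr9:7995252-7996469) with 9.79 and 9.90 (DAY3), 7.99 and 10.4 (DAY6), 8.71 and 10.6 (DAY9) and 5.56 and 3.06 (ESC), lowest in ESC. Of 10 genes of SSEA1 synthesis and surface markers, 3 (30.0%) had one. Fut9, the fucosyltransferase gene behind the SSEA1 antigen, had one inside the gene (chr4:25796064-25796639) with 6.09 and 4.85 (DAY3), 6.95 and 7.31 (DAY6), 7.72 and 7.04 (DAY9) and 7.79 and 5.16 (ESC). Alpl, the alkaline phosphatase gene used to stain pluripotent colonies, had one inside the gene, 11.2 kb upstream of one of its starts (chr4:137777678-137779256). The fold there was 4.91 and 4.85 (DAY3), 10.1 and 11.2 (DAY6), 14.5 and 14.5 (DAY9) and 9.23 and 2.94 (ESC). Cd24a had one 1.45 kb from a gene end (chr10:43580618-43581440), at 4.81 to 6.35 over the 8 libraries.

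**Figure D3:**
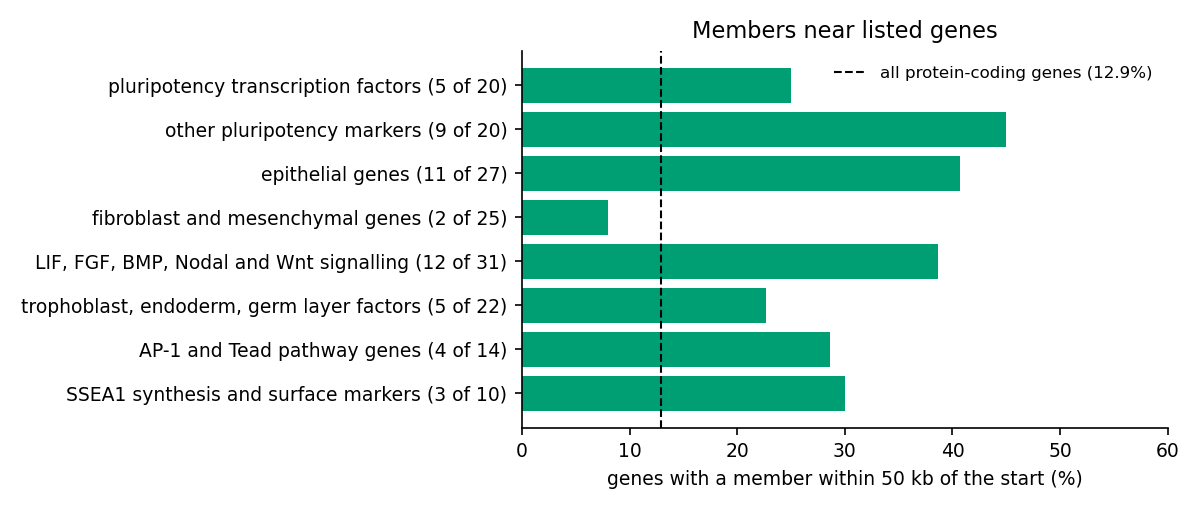
Share of the genes in each list with a region open from DAY3 within 50 kb of the start (horizontal axis, percent), with the number of genes in brackets. Where the strand of a gene is unknown, either gene end counts as the start. The dashed line marks the 12.9% of all protein-coding genes, and the fibroblast and mesenchymal list, at 8.0%, is the only bar short of it.

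The strongest regions lay in other places than the listed genes. By mean percentile of fold over the 8 lists, the first was inside Astn2 (chr4:66330449-66331195), a neuronal gene, 73.3 kb from a start, with 16.0 and 14.9 (DAY3), 20.04 and 20.2 (DAY6), 18.3 and 20.3 (DAY9) and 21.4 and 18.6 (ESC). Next came one inside Grik2 (chr10:49416900-49417861), a glutamate receptor subunit gene, 371 kb from a start, with 16.2 and 13.3 (DAY3), 20.04 and 22.7 (DAY6), 21.5 and 20.6 (DAY9) and 21.8 and 18.4 (ESC). The region nearest to 1700009N14Rik (chr4:38370852-38371601) was 1080 kb from that start, outside any protein-coding gene, with 15.7 and 16.6 (DAY3), 18.3 and 21.2 (DAY6), 19.96 and 22.3 (DAY9) and 18.9 and 15.8 (ESC). Regions inside Fggy (chr4:95684481-95685471) and Tox (chr4:6968652-6969298) had folds of 14.7 to 20.2 and 14.4 to 23.2. The other 5 of the top 10 were nearest to Lpar4, Zfp804a, Ext1, Filip1 and H2al2a, and only that of Filip1 was at a gene start. The values of these 10 regions ranged from 12.02 to 23.2; they were chosen for high folds over all 8 lists, so their height at each stage is not a result.

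As a whole the regions were distal. Their median distance to the nearest gene start was 31.7 kb, beside 32.3 kb over all regions, 31.1 kb for those open from DAY6, 25.9 kb for those open from DAY9 and 51.9 kb for those open in ESC only. Within 1 kb of a start lay 6.26% of them, beside 9.05% of all regions, 8.54% of those open from DAY6, 5.26% of those open from DAY9, 3.14% of those open in ESC only and 68.2% of those open in all 10 lists. A protein-coding gene was overlapped by 53.1%, beside 51.3% of all regions and 38.6% of those open in ESC only. Exons and introns were not separated. The gene-start share rested on MEF replicate 1: without that library 3933 regions met the rule and 13.6% of them were at a gene start. It was 13.1% with the top 50% of each list and 13.6% when peaks had to cover 50% of a region. Both settings also applied to the MEF lists, so regions with a weaker or narrower MEF peak could enter. They are therefore not stricter versions of the same set. Every chromosome contributed, from 0.898% of the regions of chromosome Y (3 of 334) to 1.48% of those of chromosome 10 (169 of 11398).

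**Figure D4:**
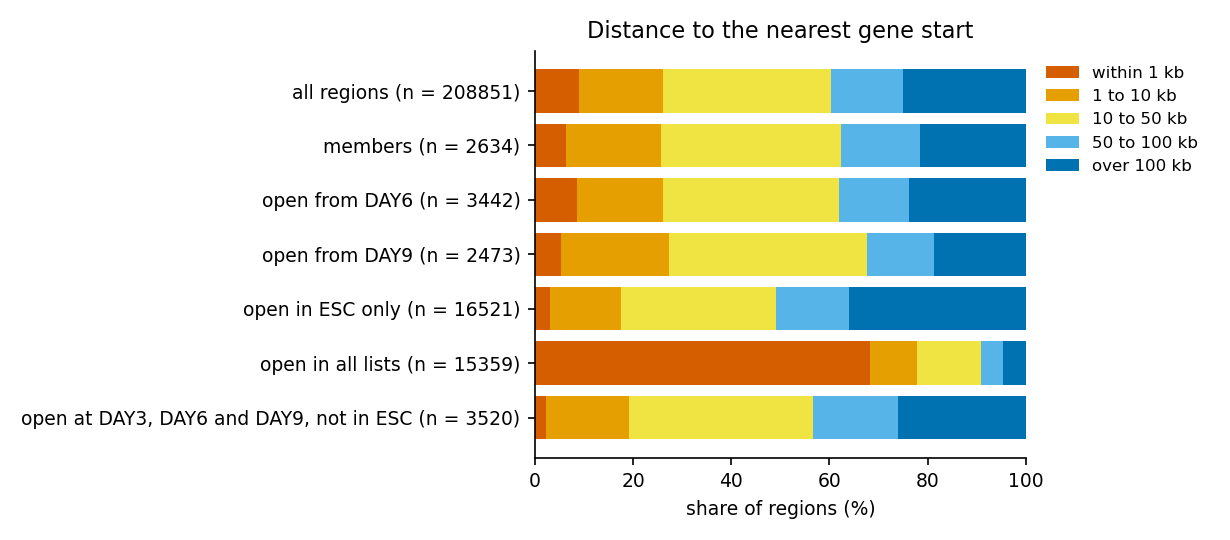
Share of regions (horizontal axis, percent) by distance to the nearest protein-coding gene start, for all regions, the regions open from DAY3 (members) and 5 other sets, with the number of regions in brackets. Members have 6.26% within 1 kb, near the sets that open later and far from the 68.2% of regions open in all lists.

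Most of the regions stood alone. Only 199 (7.56%) had another of their kind within 12500 bp, and the median gap to the next was 218 kb. Chaining at that gap gave 93 pairs, 3 groups of 3 and 1 group of 4. The same share, which larger sets raise by their number alone, was 8.4% for the 3442 regions open from DAY6, 5.46% for the 2473 open from DAY9 and 20.4% for the 16521 open in ESC only. The next region on either side of each of the 2634 was taken if within 12500 bp, which gave 4250 neighbours. A region that adjoined several of the 2634 counted once for each. Of the 4250, 94 (2.21%) were of the same kind, beside 1.26% of all regions, a ratio of 1.75. The same ratio was 2.05 for regions open from DAY6, 1.61 for those open from DAY9, 1.47 for those open in ESC only and 2.09 for those open through DAY9 and not in ESC. Proximity of like regions was thus not particular to these 2634.

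The group of 4 spanned 21.2 kb upstream of the miR-290 hairpins (chr7:3192935-3214095), and its last region ended 4.53 kb before the first hairpin, Mir290a. From the outermost inwards, the first region (chr7:3192935-3194548) had a fold of 3.17 and 3.67 (DAY3), 10.0 and 6.39 (DAY6), 8.78 and 8.01 (DAY9) and 4.23 and 7.22 (ESC). In the second (chr7:3200966-3201895) it was 3.65 and 3.19 (DAY3), 8.62 and 11.7 (DAY6), 10.4 and 9.26 (DAY9) and 11.05 and 7.37 (ESC). Both thus had their lowest values in DAY3. The third region (chr7:3211597-3212600) had 9.17 and 7.36 (DAY3), 9.46 and 12.3 (DAY6), 9.54 and 10.9 (DAY9) and 4.81 and 6.18 (ESC), and the fourth (chr7:3213282-3214095) had 5.66 and 5.53 (DAY3), 7.67 and 5.04 (DAY6), 6.56 and 6.71 (DAY9) and 4.61 and 3.21 (ESC). In these the DAY3 values exceed those of ESC, so the 4 neighbours did not share an order of stages. Between them lay 4 other regions: 2 with peaks in both ESC libraries alone, 1 with peaks in both libraries of DAY6, DAY9 and ESC, and 1 with peaks in 1 DAY6, both DAY9 and 1 ESC library. A further region between the last of the 4 and Mir290a had peaks in both libraries of DAY6, DAY9 and ESC. MicroRNA levels were not measured in these libraries.

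**Figure D5:**
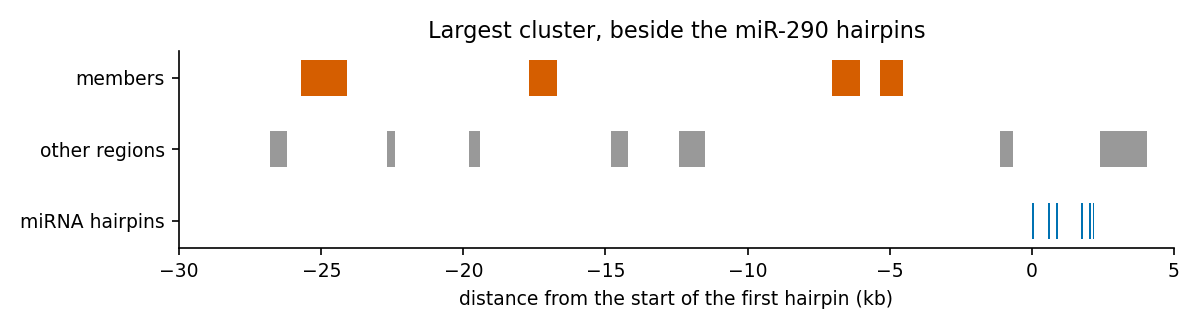
Position of the regions open from DAY3 (top), other regions (middle) and microRNA hairpins (bottom) as distance from the start of the first hairpin, Mir290a (horizontal axis, kb). The 4 members lie between -25.7 and -4.53 kb, upstream of all hairpins.

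The groups of 3 lay inside Trim2, at Gabbr1 and inside Mbnl2. The Trim2 group (chr3:84181368-84194412) held no other region, and its first member (chr3:84181368-84182242) had a fold of 3.33 and 3.35 (DAY3), 10.3 and 12.4 (DAY6), 11.8 and 13.7 (DAY9) and 9.15 and 11.4 (ESC), with every later value above both DAY3 values. At Gabbr1, a GABA receptor gene (chr17:37062964-37079638), the member nearest to Olfr90 and outside any protein-coding gene (chr17:37078800-37079638) had the highest values, with 7.87 and 7.42 (DAY3), 10.8 and 11.7 (DAY6), 10.9 and 11.5 (DAY9) and 8.17 and 5.90 (ESC). In Mbnl2, which encodes a splicing regulator (chr14:120302974-120319041), the first member (chr14:120302974-120303789) had 5.97 and 5.65 (DAY3), 8.50 and 11.1 (DAY6), 11.1 and 10.9 (DAY9) and 5.61 and 6.47 (ESC), highest in DAY6 and DAY9, while the second (chr14:120306225-120306632) had 2.92 and 2.82 (DAY3), 2.85 and 6.25 (DAY6), 4.06 and 4.07 (DAY9) and 8.89 and 8.50 (ESC), highest in ESC. The first pair by summed length lay 64.8 and 71.7 kb from the start of Ttc29 (chr8:78139645-78148589), with folds of 3.97 to 11.8. The next lay 10.6 and 18.5 kb from a start of Tgif1 (chr17:70864159-70873671), which encodes a repressor of TGF-beta targets. Its nearer member had 6.48 and 6.81 (DAY3), 13.3 and 13.3 (DAY6), 11.9 and 11.3 (DAY9) and 9.18 and 5.26 (ESC).

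The position of the peak within a region was not part of the rule. Over the 2265 regions with 1 peak in each of the 8 lists, the midpoints of the DAY3 and ESC peaks, each a mean over 2 libraries, differed by a median of 56.5 bp, and in 1649 (72.8%) by at most 100 bp. The median was 35.8 bp from DAY3 to DAY6, 29.5 bp from DAY6 to DAY9 and 45.5 bp from DAY9 to ESC. Single libraries of one stage differed by 28.5 bp (DAY9) to 49.5 bp (ESC), each less than the 56.5 bp between DAY3 and ESC. Means over 2 libraries scatter less than single ones. The replicate distances are also over other sets, the 2424 (ESC) to 2526 (DAY3) regions with 1 peak in each list of that stage. The DAY3 and ESC midpoints were thus farther apart than those of replicates. Median peak width at these regions was 552 and 550 bp (DAY3), 716 and 637 bp (DAY6), 717 and 719 bp (DAY9) and 573 and 640.5 bp (ESC). In each list this exceeded the median over all peaks, which was 480 to 532 bp. The rule asked for a peak in all 8 lists, and only the peak with the highest −log10 p-value in a region was used. Widths at other regions with peaks in all 8 lists were not compared, so the excess is not a result about these regions.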

How the data were processed

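The 10 libraries, 2 for each of 5 stages, were grouped by their titles. The authors deposited 1 peak list per library, not per pooled stage. Per the submitters' processing notes, Bowtie2 2.3.2, MACS2 2.1.1 and deepTools 2.3.6 were used, with build mm10; the role of each tool and any filter after peak calling are not given in the sources used here. Each list of 10 columns holds the authors' score (10 times the deposited −log10 p-value), the deposited fold (a ratio over background), and a deposited −log10 p-value and −log10 q-value; the lowest −log10 p-value was 5.00. The summit column holds no positions, so peak midpoints replaced the planned summits. Per peak values are the authors' own. Read totals are unknown.

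Peaks sharing 1 bp were merged, and regions were selected by presence. Where a region held several peaks in a list, the one with the highest −log10 p-value was used. Gene starts came from RefSeq tables (GRCm38.p6, the assembly of mm10): 17492 of 21887 protein-coding genes have a strand there, and both ends of the others were used. Distances are to the edge of a region. Summit heights were recovered as whole numbers from fold and −log10 p-value (tolerance 0.01, heights of 40 or more) to compare replicates.

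Regions named are the 10 with the highest mean percentile of fold, the 12 such within 1 kb of a gene start, the 6 largest groups, up to 5 genes nearest to a region in each list, and 3 on either side of the rule. The rule, the members and the gene lists were chosen with earlier results of these data known. No test was run: even 2 independent libraries against 2 allow no two-sided exact permutation p-value under 0.333, DAY3 as well as DAY9 gives only 1 sample, and neighbouring regions are not replicates. Merging, selection and height recovery were tested on simulated data. Alternatives are in the closing section. Python 3.11.15, numpy 2.4.6, pandas 2.3.3 and scipy 1.17.1 were used.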

Additional observations from a re-analysis of the deposited data

How the results depend on the processing

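The number of regions (2634) was 1463 when peaks had to cover 50% of a region and 1171 with the top 50% of each list. It was 2652 to 3933 when 1 library was left out, the highest without MEF replicate 1. Coverage, the top 50% and lists of equal length were applied to the MEF lists too. Regions with a weaker or narrower MEF peak could therefore enter under these settings. The share at a gene start (6.26%) was 13.6%, 13.1% and, with lists of equal length, 12.52%; it was 9.61% within 2.5 kb, 4.44% with known starts only, and 5.79% to 13.6% without 1 library. The share inside a gene was 57.4%, 56.8% and 55.99% under the first 3 settings and 52.6% to 56.1% without 1 library, and the median distance to a start was 23.1, 26.8 and 27.1 kb, and 25.0 to 33.3 kb. Regions with another within 12500 bp were 6.15%, 4.78% and 6.19%, 12.6% at 25 kb, and 7.43% to 10.3% without 1 library. Listed genes with a region nearby were 18.9% within 20 kb, 18.9% with the top 50%, and 30.2% to 42.0% without 1 library. Midpoints of DAY3 and ESC differed by 62.0 bp over all members, 47.5 bp with 50% coverage, 59.2 bp with the top 50%, and 54.8 to 67.2 bp. The share ranked higher in DAY6 than in DAY3 was 40.7% away from gene starts, 43.6%, 44.1% and 49.2% under the first 3 settings, and 42.1% to 59.6% without 1 library, where 1 list a stage makes separation easier.

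As a replicate block, the lists of replicate 1 and of replicate 2 were used alone, with no test; the labels do not say that the numbers pair libraries. In this block 4650 and 5975 regions met the rule, 7.51% and 12.2% at a gene start, 28.9 and 25.3 kb from one, 12.2% and 14.7% with another within 12500 bp, near 44.4% and 50.3% of listed genes, with midpoints 64 and 69 bp apart and 63.9% and 63.8% ranked higher in DAY6. Both had fewer lists to meet.

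Each cause other than a stated change in lists, windows or genes was not tested. Rank and midpoint alternatives and known starts were added after seeing the data. The planned summit distances and motif windows centred on summits were not run, since no summits were listed and no genome was used here. Depth is unknown, so no detection limit can be given for a missing MEF peak.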

Other observations

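Other epithelial and pluripotency genes, chosen after their values were seen, had a region at a larger distance. Cdh1, which encodes E-cadherin, had one inside the gene (chr8:106631509-106633070) with a fold of 7.34 and 8.21 (DAY3), 13.0 and 7.97 (DAY6), 10.0 and 10.4 (DAY9) and 3.33 and 4.75 (ESC). Epcam, which encodes an epithelial adhesion protein, had one 32.2 kb upstream (chr17:87602414-87603789) with 7.28 and 7.48 (DAY3), 10.7 and 9.87 (DAY6), 9.66 and 8.94 (DAY9) and 3.52 and 4.04 (ESC). In both, the ESC values are the lowest of the 8. Elf3, an epithelial transcription factor gene, had one 40.1 kb downstream (chr1:135217289-135218398) with 7.14 and 3.35 (DAY3), 7.41 and 11.7 (DAY6), 15.7 and 15.4 (DAY9) and 14.2 and 10.8 (ESC). Tet2, which encodes a DNA demethylation enzyme, had one inside the gene (chr3:133524355-133525458) with 10.9 and 9.45 (DAY3), 12.9 and 14.8 (DAY6), 13.1 and 12.8 (DAY9) and 9.67 and 9.27 (ESC). Tdgf1, the gene of a Nodal coreceptor, had one 48.4 kb upstream (chr9:110994600-110995251) with 3.51 and 4.79 (DAY3), 10.6 and 9.21 (DAY6), 12.7 and 11.6 (DAY9) and 12.2 and 8.74 (ESC), where both DAY3 values lie below all others.

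Mean ranks among the 19514 regions with a peak in the 8 later lists show how far single regions departed from the common order. At Yap1 the percentile was 81.9 (DAY3), 48.6 (DAY6), 49.2 (DAY9) and 11 (ESC). At Gdf3 it was 94.2 (DAY3), 79.8 (DAY6), 60.1 (DAY9) and 32.4 (ESC). Both are highest in DAY3 and lowest in ESC. Id3 ranked lowest in DAY3, with 0.692 (DAY3), 2.22 (DAY6), 28.7 (DAY9) and 31 (ESC), and so did Elf3, with 32.2 (DAY3), 50.9 (DAY6), 89.3 (DAY9) and 82.9 (ESC). These are descriptions of single regions and have no test.

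Windows of 500 kb with the most regions held 6 each. One lay on chromosome 6 around Tcf7l1 and Kcmf1 (72500001 to 73000000, 111 regions in all), and the others lay on chromosome 2 (150500001 to 151000000), chromosome 3 (149000001 to 149500000, nearest to Adgrl2), chromosome 7 (82500001 to 83000000) and chromosome 13 (113500001 to 114000000). Of 1005 microRNA hairpins, 62 (6.17%) had a region within 20 kb, near the 5.99% of protein-coding genes, and 8, those of the miR-290 cluster, had 3. Among the other hairpins, let-7d, let-7f-1 and let-7a-1 shared a region 7.10 to 9.27 kb away. These sets were chosen after their values were seen.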
